A study of Mus musculus with 12 samples.

Results

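Heat shock proteins and DnaJ cochaperones were followed as a gene family in RNA from the joint lining and fat pad of SKG/Jcl mice with and without mannan-induced arthritis. The members were all genes of the deposited table named Hspa, Hspb, Hsp90, Hspd1, Hspe1, Hsph1 or Dnaj of class a, b or c, without pseudogenes and read-through names. Other genes that begin with the same letters (Hspg2, Hspbp1, Hspbap1) were left out. This gave 72 of the 25655 genes in the table. Of these, 65 reached 1 CPM (reads of a gene scaled to library size) in 4 or more libraries, and the same 65 were among the 14278 genes that had enough reads to be tested. The other 7 had few or no reads and are given by name only: Dnajb7, Dnajb8, Dnajc22, Dnajc5b, Dnajc5g, Hspb3 and Hspb9. Hspa1b, the gene taken to mark the family, was read in all 12 libraries.

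Heat shock proteins are chaperones: they hold, fold or refold other proteins. HSP70 proteins do this in cycles of ATP hydrolysis that DnaJ proteins (also called HSP40 or J proteins) start and nucleotide exchange factors such as HSP110 end, while HSP90 takes over partly folded clients and small heat shock proteins bind unfolded protein without ATP. The cytosol, the endoplasmic reticulum (ER) and the mitochondria each have members of their own, and different stresses induce them through different promoter elements, the heat shock element in the cytosolic response and the ER stress element in the unfolded protein response.

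All mice were of the SKG/Jcl strain, which carries a Zap70 mutation and is prone to autoimmune arthritis, and each of the 3 groups had 4 libraries. AREx mice received 20 mg mannan, a yeast sugar polymer that sets off the arthritis, and low-intensity treadmill exercise. Mannan-only mice received 20 mg mannan without the treadmill. Sedentary mice received PBS. The labels state neither age nor whether the libraries are of different animals, and p-values therefore measure only the spread between these libraries.

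Depth ran from 11803882 to 17650156 counts per library. Levels are CPM on library sizes after TMM scaling, and differences between groups are log2 fold changes from edgeR's quasi-likelihood test with Benjamini-Hochberg adjustment over all genes tested. The tissue itself differed between the groups. All 8 adipocyte markers fell in Mannan-only and in AREx, with sums of 975 to 2984 CPM in AREx and 831 to 1699 CPM in Mannan-only, against 12443 to 21991 CPM in Sedentary. Of the neutrophil markers, 6 of 8 rose in both groups (sums of 1074 to 6474 CPM in AREx and 2525 to 5392 CPM in Mannan-only, against 12.9 to 116 CPM in Sedentary, where Camp had no read in 1 library). Of the synovial fibroblast markers, 3 of 7 rose in both (26980 to 48748 CPM in AREx and 40799 to 47323 CPM in Mannan-only, against 8992 to 30309 CPM in Sedentary). Macrophage markers were mixed, with 5 of 8 higher in AREx, 6 of 8 higher in Mannan-only and 2 lower in each. In whole tissue, fewer cells of a type and less RNA per cell cannot be told apart. Sedentary replicate 2 held 19015 CPM of the fibroblast marker Prg4, against 795, 1900 and 209 CPM in Sedentary replicates 1, 3 and 4. That library set the upper end of the Sedentary fibroblast range and had the lowest Sedentary adipocyte sum, 12443 CPM. Some AREx libraries stood apart too. Skeletal muscle markers summed to 3491 and 3402 CPM in AREx replicates 2 and 4, to 334 and 326 CPM in AREx replicates 1 and 3, to 19.9 to 364 CPM in Mannan-only and to 26.9 to 125 CPM in Sedentary. In AREx replicates 1 and 4, short genes were read more and long genes less: the median of the shortest quintile of genes lay at 0.71 and 0.38 (log2, relative to each gene's mean over the 12 libraries), and that of the longest quintile at -0.50 and -0.31. Of the 26 members called in AREx against Sedentary, 23 were kept without AREx replicates 1 and 4, and 24 without replicates 2 and 4. Other members passed only when these libraries were left out. Values without them are given beside several genes whose call changed.

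The abundant ER chaperones Hspa5 and Hsp90b1 and the constitutive HSP70 gene Hspa8 rose in the mannan-treated joints, while the stress-inducible HSP70 genes Hspa1a and Hspa1b, the small heat shock genes Hspb1 and Hspb8 and the mitochondrial chaperones Hspa9 and Hspd1 fell. In Mannan-only against Sedentary, 10 members rose and 24 fell of 65, at an adjusted p under 0.05, and 31 did not pass. Among all genes tested in that comparison, 51.5% passed, 26.3% higher and 25.2% lower. The median log2 fold change was -0.19 over the members and 0.01 over all genes. The fit estimated the spread from all groups together, so the AREx libraries also entered the Mannan-only test. With only the 2 groups compared, 14 members rose and 30 fell in Mannan-only, and 9532 of all genes were called, against 7347. Without AREx replicates 1 and 4, 14 rose and 31 fell in Mannan-only, and 9993 of all genes were called. In AREx against Sedentary, 9 rose, 17 fell and 39 did not pass, against 50.8% of all genes, 27% higher and 23.7% lower. The medians were -0.11 over the members and 0.05 over all genes. Without AREx replicates 1 and 4, these counts were 12 higher and 26 lower, and without AREx replicates 2 and 4 they were 7 and 21. The count of all genes called moved too, from 7253 to 8896 without replicates 1 and 4 and to 6864 without replicates 2 and 4. The Mannan-only libraries did not overlap the Sedentary ones for 14 members that were higher and 29 that were lower, where 63.8% of all genes did not overlap, 32.2% higher and 31.6% lower. The AREx libraries did not overlap the Sedentary ones for 9 members that were higher and 16 that were lower, against 45.2% of all genes, 22.7% higher and 22.5% lower. Both comparisons share the Sedentary libraries, so their likeness is not independent. The counts by role and by list below are to be read beside these shares of all genes that passed in each direction.

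**Figure D1:**
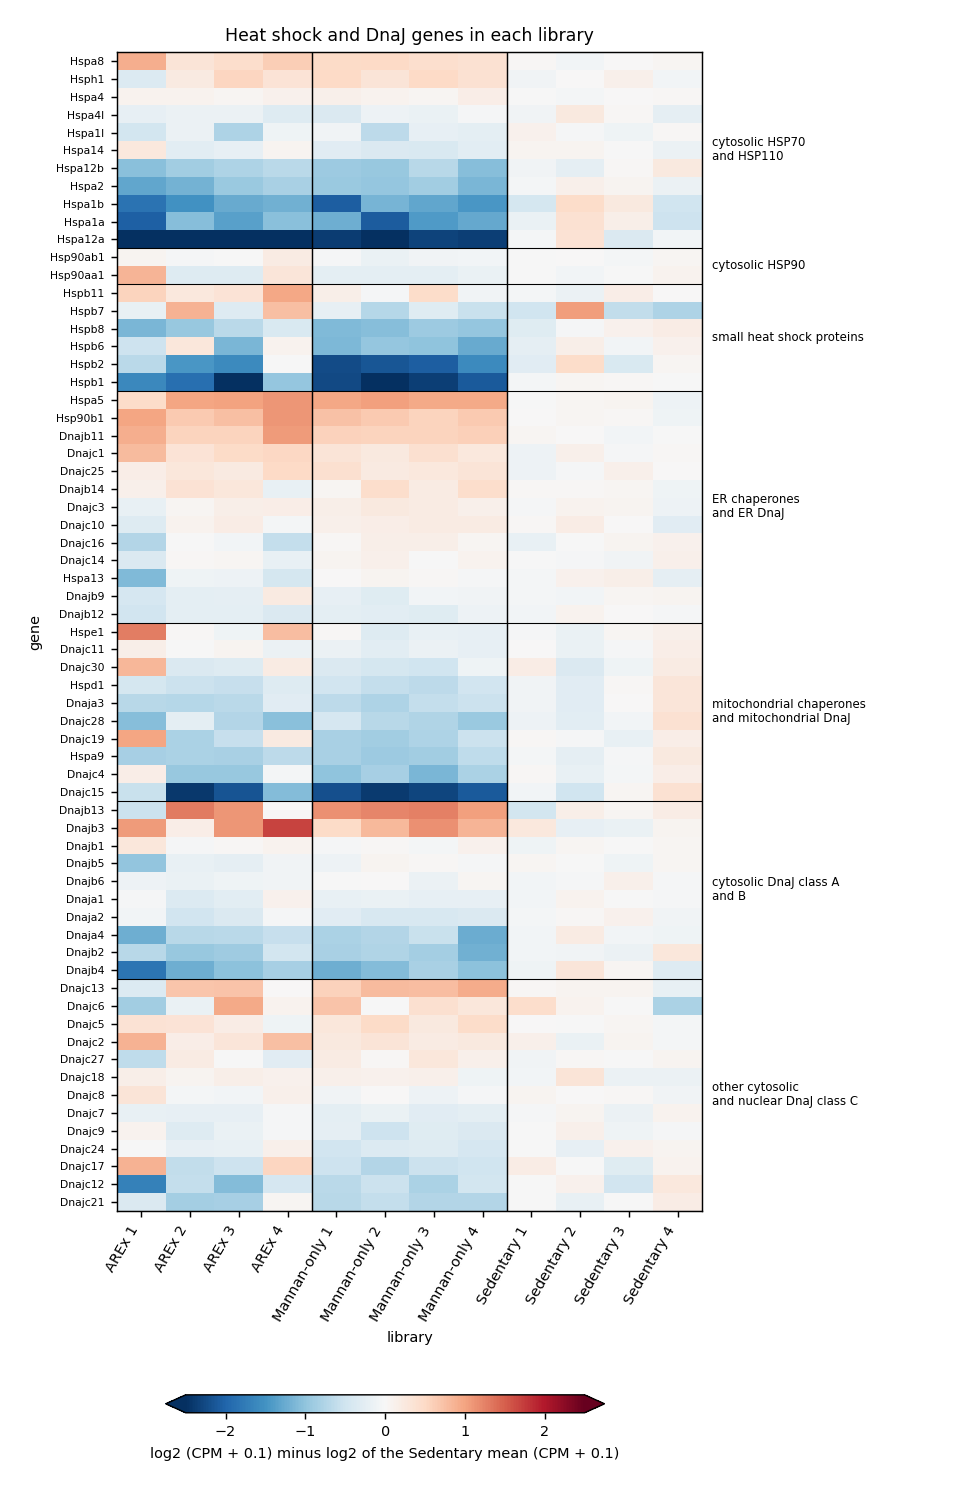
Level of each of the 65 members in each library, as the difference of log2(CPM + 0.1) from log2 of the Sedentary mean. Rows are genes sorted within their role by the Mannan-only difference, columns are libraries, and colours end at -2.5 and 2.5. Hspa12a, Hspb1 and Dnajc15 are darkest blue in the Mannan-only columns, Hspa5, Hsp90b1 and Dnajb11 are red in AREx and Mannan-only, and the AREx columns differ among themselves more than the other groups' columns do.

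Of the 10 members that rose in Mannan-only, 5 were among the 13 of the ER. The shares of all genes were 26.3% higher and 25.2% lower in Mannan-only, and 27% higher and 23.7% lower in AREx. In Mannan-only, 5 of the 13 ER members rose and none fell, and in AREx the same number rose and 1 fell. The 2 most abundant per gene length were Hspa5 (BiP, the HSP70 of the ER lumen, chromosome 2, 34661982 to 34667559 on the plus strand of GRCm39) and Hsp90b1 (the HSP90 of the ER lumen, chromosome 10, 86526073 to 86541373, minus strand). Hspa5 measured 593, 866, 868 and 931 CPM in AREx, 850.0, 886, 838 and 842 CPM in Mannan-only, and 433, 449, 456 and 399 CPM in Sedentary. All 8 mannan-treated libraries lay above all Sedentary libraries, with AREx replicate 1 the lowest of the 8. Hspa5 rose in Mannan-only (log2 fold change 0.98, SE 0.15, adjusted p = 0.000133) and in AREx (log2 fold change 0.91, SE 0.15, adjusted p = 0.000241).

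Hsp90b1 measured 857, 679, 729 and 929 CPM in AREx, 715, 684, 639 and 679 CPM in Mannan-only, and 436, 448, 439.7 and 403 CPM in Sedentary. No mannan-treated library overlapped Sedentary, and AREx replicates 1 and 4 were the highest. Hsp90b1 rose in Mannan-only (log2 fold change 0.65, SE 0.13, adjusted p = 0.000956) and in AREx (log2 fold change 0.89, SE 0.13, adjusted p = 0.000104). Dnajb11, a J protein of the ER lumen that binds BiP and unfolded chains, followed. Dnajb11 measured 132, 102, 104 and 146 CPM in AREx, 104, 104, 103 and 106 CPM in Mannan-only, and 72.8, 70.3, 67.2 and 69.8 CPM in Sedentary. The 4 Mannan-only libraries lay within a few CPM of each other and the AREx libraries split into 2 near the Mannan-only level and 2 above it. Dnajb11 rose in Mannan-only (log2 fold change 0.58, SE 0.12, adjusted p = 0.00152) and in AREx (log2 fold change 0.79, SE 0.12, adjusted p = 0.000158).

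The other 2 that rose in both groups moved less. Dnajc1, an ER membrane J protein, had log2 fold changes of 0.54 in AREx and 0.31 in Mannan-only (adjusted p = 0.00128 and 0.0296), and Dnajc25 had 0.29 in AREx and 0.30 in Mannan-only (adjusted p = 0.0335 and 0.0308). The AREx call of Dnajc25 was lost without AREx replicates 2 and 4 (0.20, adjusted p = 0.198), and with the gene length trend removed the Mannan-only call of Dnajc1 was lost (0.17, adjusted p = 0.478). Several partners of BiP did not pass in either group. Dnajb9, which helps BiP to repress the stress sensor IRE1 and to clear misfolded proteins, averaged 41.5 ± 8.201 CPM in AREx and 41.1 ± 3.097 CPM in Mannan-only, beside 45.99 ± 2.21 CPM in Sedentary (SD, n = 4 each), with log2 fold changes of -0.15 in AREx and -0.16 in Mannan-only. Dnajc3, which inhibits the stress kinase PERK, had 0.05 in AREx and 0.18 in Mannan-only, and Dnajc10, a J protein with reductase activity, had -0.01 in AREx and 0.18 in Mannan-only. Dnajb12, an ER membrane J protein that acts in degradation, fell in AREx (log2 fold change -0.33, SE 0.09, adjusted p = 0.0102) and missed the threshold in Mannan-only (log2 fold change -0.23, SE 0.09, adjusted p = 0.0522). With the skeletal muscle markers as a covariate the AREx call of Dnajb12 was lost (-0.27, adjusted p = 0.166). The ER membrane relative Dnajb14 had 0.16 in AREx and 0.29 in Mannan-only, neither past the threshold. When AREx replicates 1 and 4 were left out, several of these ER genes passed: Dnajb14 in AREx (0.32, adjusted p = 0.0254) and in Mannan-only (0.29, adjusted p = 0.0146), Dnajb9 in AREx (-0.23, adjusted p = 0.0348), and Dnajc3 (0.18, adjusted p = 0.0307) and Dnajb12 (-0.23, adjusted p = 0.00673) in Mannan-only. Hspa13, Dnajc14 and Dnajc16 did not pass in either comparison with Sedentary. Dnajc14 overlaps Sarnp on the same strand, so its count is uncertain with or without use of strand. Dnajc1 overlaps Mllt10 on the other strand, so its count is uncertain where strand was not used.

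The ER stress element is shown because Hspa5 and Hsp90b1, which rose, both carry it and Dnajc3, which did not pass with all libraries, carries it too. RefSeq promoters (GRCm38.p6) were found for 58 of the 72 members, and the 250 bases upstream of the start were searched on both strands for CCAAT and CCACG with 9 bases of any kind between them. It was present in 3 members, the genes named, and in 0.13% of 27025 genes. These stretches lie at chr2:34771940-34772089 (plus strand, Hspa5), chr10:86705445-86705694 (minus strand, Hsp90b1) and chr14:118937782-118937931 (plus strand, Dnajc3), read 5′ to 3′ and ending at the base before the start, with the element in capitals. Hsp90b1 has 2 copies, at bases -212 to -194 and -107 to -89 from the start, Hspa5 has 1 at -65 to -47 and Dnajc3 has 1 at -105 to -87. A match describes these letters only.
Hspa5: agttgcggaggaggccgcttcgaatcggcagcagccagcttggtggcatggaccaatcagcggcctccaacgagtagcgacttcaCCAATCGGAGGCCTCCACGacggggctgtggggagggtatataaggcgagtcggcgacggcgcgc
Hsp90b1: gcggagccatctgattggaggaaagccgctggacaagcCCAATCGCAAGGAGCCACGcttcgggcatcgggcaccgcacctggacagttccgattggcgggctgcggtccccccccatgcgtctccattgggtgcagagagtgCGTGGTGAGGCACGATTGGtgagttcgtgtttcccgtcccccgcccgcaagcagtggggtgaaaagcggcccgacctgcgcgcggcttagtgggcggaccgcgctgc
Dnajc3: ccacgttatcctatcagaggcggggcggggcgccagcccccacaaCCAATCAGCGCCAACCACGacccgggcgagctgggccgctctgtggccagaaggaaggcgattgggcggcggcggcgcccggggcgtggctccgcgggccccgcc

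Of the wider unfolded protein response list (19 genes in the table, none a member), 10 rose and none fell in AREx and in Mannan-only. That is 52.6% higher, where 27% of all genes were higher in AREx and 26.3% in Mannan-only. The 4 with the smallest p in AREx were Sdf2l1 (log2 fold change 1.62), Calr (1.30), Pdia6 (1.07) and Pdia3 (0.92), and in Mannan-only Sdf2l1 had 1.28, Calr 1.01, Pdia6 0.82 and Pdia3 0.82. Sdf2l1 works with BiP and Dnajb11, Calr is the lectin chaperone calreticulin, and Pdia3 and Pdia6 form disulfide bonds. The 3 fibroblast and 6 neutrophil markers given above rose in the same comparisons, and their part in the ER increase was not tested.

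**Figure D2:**
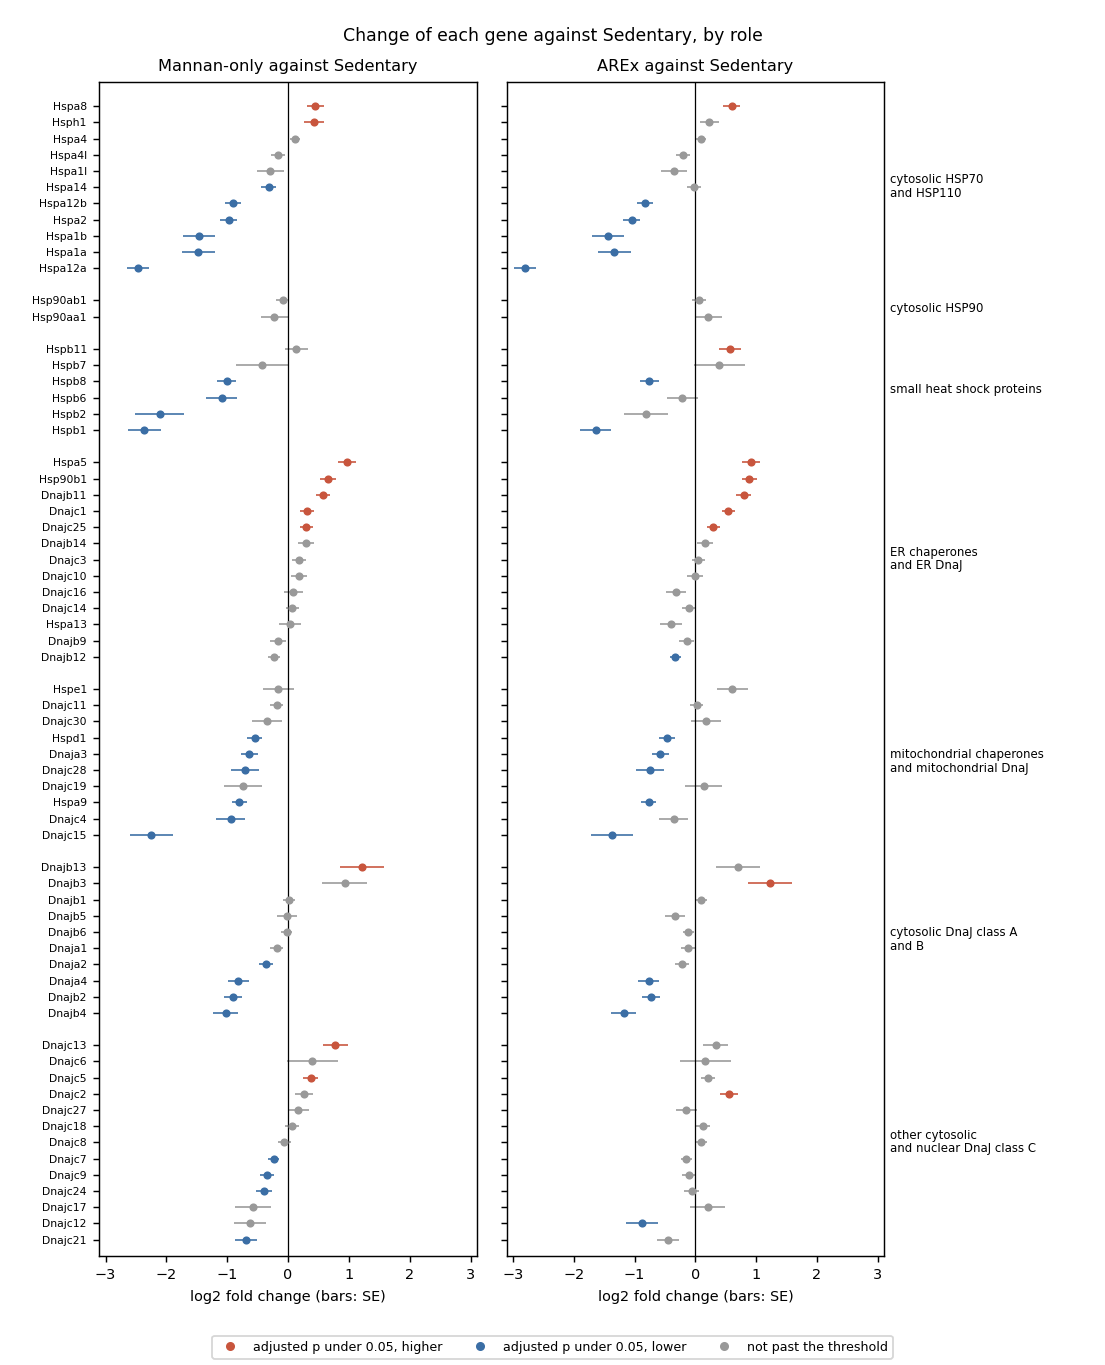
Log2 fold change of each of the 65 members in Mannan-only against Sedentary (left) and AREx against Sedentary (right), grouped by role, with bars of 1 SE from edgeR's fit. Red and blue points passed an adjusted p of 0.05. The ER group holds 5 red points on each side, the mitochondrial group none, and Hspa12a lies lowest on both sides.

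Of the 11 cytosolic HSP70 and HSP110 genes, 1 rose and 5 fell in AREx and 2 rose and 6 fell in Mannan-only. For all genes the shares were 27% higher and 23.7% lower in AREx, and 26.3% higher and 25.2% lower in Mannan-only. The stress-inducible pair Hspa1a and Hspa1b fell, while Hspa8, the constitutive HSP70, rose. Hspa1b measured 7.17, 9.097, 10.8 and 11.3 CPM in AREx, 6.15, 11.6, 10.6 and 9.49 CPM in Mannan-only, and 19.1, 35.9, 30.9 and 18.4 CPM in Sedentary. Every mannan-treated library lay below every Sedentary library, although the Sedentary libraries themselves formed a lower pair (replicates 1 and 4) and a higher pair. Hspa1b fell in Mannan-only (log2 fold change -1.47, SE 0.26, adjusted p = 0.000479) and in AREx (log2 fold change -1.44, SE 0.26, adjusted p = 0.000545). Hspa1a measured 3.81, 7.59, 6.13 and 7.65 CPM in AREx, 6.75, 3.68, 5.94 and 6.55 CPM in Mannan-only, and 14.3, 20.9, 17.6 and 11.1 CPM in Sedentary. Groups again did not overlap. Hspa1a fell in Mannan-only (log2 fold change -1.48, SE 0.27, adjusted p = 0.000576) and in AREx (log2 fold change -1.33, SE 0.27, adjusted p = 0.00116).

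The pair lies on chromosome 17 of GRCm39, Hspa1b at 35175412 to 35178214 and Hspa1a at 35188166 to 35191132, both on the minus strand. The genes are near-identical, so reads may have been split between them by the authors' counting, and the ratio of Hspa1a to Hspa1b ran from 0.532 to 0.835 over AREx, from 0.317 to 1.099 over Mannan-only and from 0.568 to 0.746 over Sedentary. Their promoters are shown because they too are nearly the same: of the 250 bases upstream of the start, 247 were identical and 3 differed. In the 150 bases printed here (chr17:34959239-34959388 for Hspa1b and chr17:34972157-34972306 for Hspa1a, minus strand, GRCm38.p6, RefSeq), 1 base differs. Capitals mark a heat shock element of 2 units, GAANNTTC or TTCNNGAA on either strand, at bases -104 to -97. This short form stood in 14 of the 58 members searched and in 14.549% of all promoters.
Hspa1b: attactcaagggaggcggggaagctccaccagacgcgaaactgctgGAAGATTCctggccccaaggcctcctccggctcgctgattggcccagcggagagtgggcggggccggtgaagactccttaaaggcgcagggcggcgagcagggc
Hspa1a: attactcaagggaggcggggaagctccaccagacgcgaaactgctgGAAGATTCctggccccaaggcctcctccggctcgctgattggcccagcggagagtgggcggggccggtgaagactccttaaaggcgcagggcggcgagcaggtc

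Hspa8 measured 2005, 1340.3, 1450.4 and 1644 CPM in AREx, 1489.8, 1515, 1436 and 1390.3 CPM in Mannan-only, and 1084, 1018, 1068 and 1098 CPM in Sedentary. AREx replicate 1 was the highest and no mannan-treated library reached down to Sedentary. Hspa8 rose in Mannan-only (log2 fold change 0.45, SE 0.14, adjusted p = 0.0186) and in AREx (log2 fold change 0.59, SE 0.14, adjusted p = 0.00402). In Mannan-only the call was lost without Sedentary replicate 2 (0.42, adjusted p = 0.0554). Hsph1, an HSP110 that exchanges nucleotide on HSP70, rose in Mannan-only (log2 fold change 0.43, SE 0.16, adjusted p = 0.0377), but the call was lost without any 1 of Sedentary replicates 1, 2 and 4 or of the 4 Mannan-only replicates (adjusted p 0.0519 to 0.0908), and without AREx replicates 2 and 4 (0.43, adjusted p = 0.0504). In AREx its log2 fold change was 0.22 (adjusted p = 0.254), and 0.39 (adjusted p = 0.00755) without AREx replicates 1 and 4. The other HSP110 genes, Hspa4 and Hspa4l, did not pass in either group.

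The largest decrease of any member was that of Hspa12a, a divergent HSP70 relative. Hspa12a measured 15.6, 17.8, 21.1 and 21.7 CPM in AREx, 25.4, 18.5, 26.6 and 25.7 CPM in Mannan-only, and 128, 171, 104 and 127 CPM in Sedentary. The AREx and Mannan-only libraries all lay far below the lowest Sedentary library. Hspa12a fell in Mannan-only (log2 fold change -2.46, SE 0.18, adjusted p = 8.16e-07) and in AREx (log2 fold change -2.80, SE 0.18, adjusted p = 5.18e-07). Its relative Hspa12b, known from endothelium, fell by 0.83 in AREx and by 0.90 in Mannan-only on the log2 scale (adjusted p = 0.000219 and 0.000112). Hspa2, best known from male germ cells, fell by 1.05 in AREx and by 0.98 in Mannan-only (adjusted p = 3.64e-05 and 6.03e-05). Hspa14 fell in Mannan-only (log2 fold change -0.32, SE 0.12, adjusted p = 0.0447) and not past the threshold in AREx (-0.02, adjusted p = 0.894; without AREx replicates 1 and 4, -0.23, adjusted p = 0.0302), and Hspa1l passed in neither. Hspa14 shares 8264 bases with Gm45902 on the same strand, which had 687 reads against 5815 of Hspa14, so its count is uncertain. The 8 adipocyte markers fell in the same libraries, and their part in the decreases given here was not tested.

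**Figure D3:**
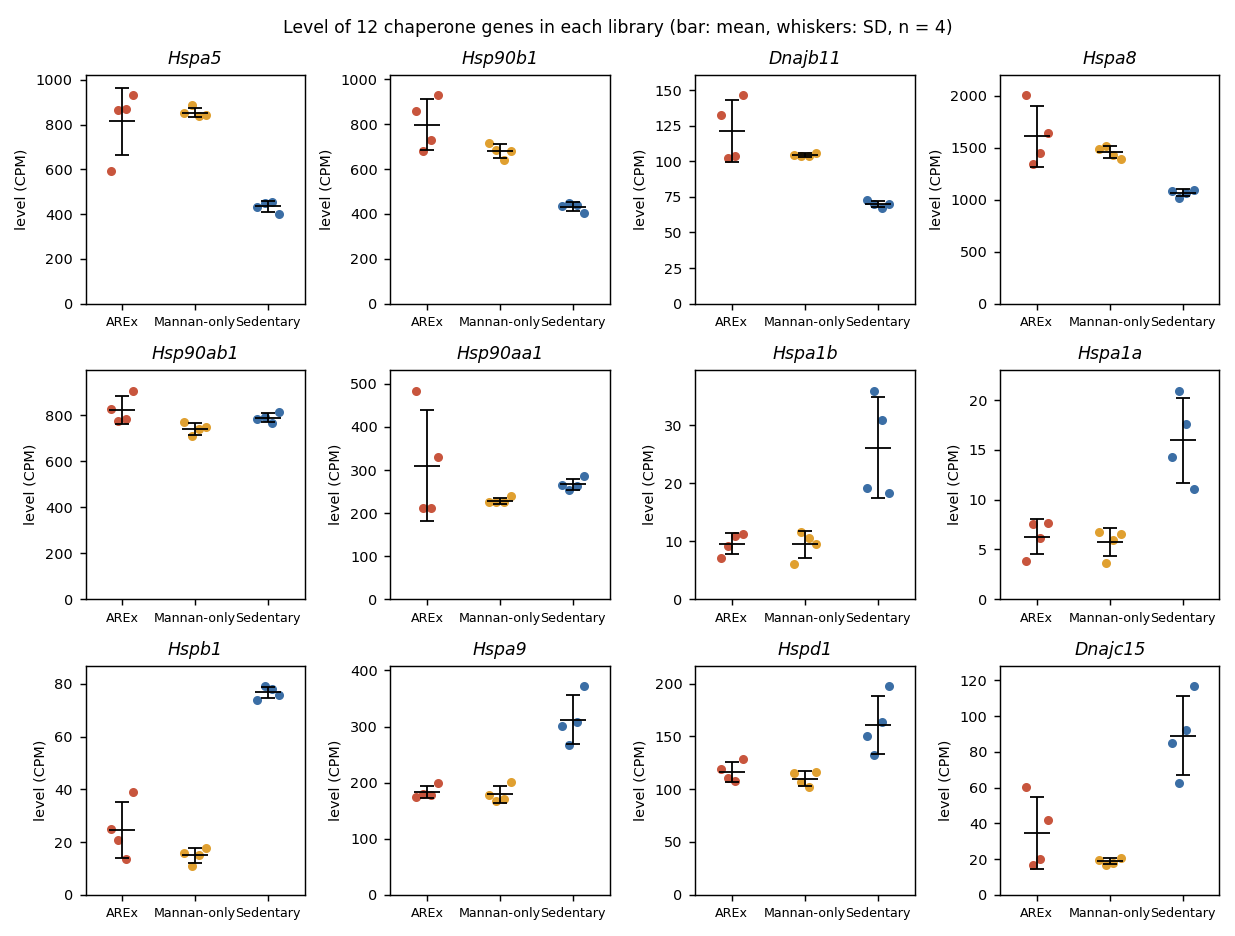
Level (CPM) of 12 chaperone genes in each AREx, Mannan-only and Sedentary library, with the mean and SD of n = 4 as bars. Hspa5, Hsp90b1, Dnajb11 and Hspa8 lie higher in AREx and Mannan-only than in Sedentary, and Hspa1b, Hspa1a, Hspb1, Hspa9, Hspd1 and Dnajc15 lie lower. Hsp90aa1 and Dnajc15 are spread widely over the 4 AREx libraries.

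Neither cytosolic HSP90 gene passed the threshold against Sedentary. Hsp90ab1, the constitutive form, averaged 823 ± 59.4 CPM in AREx and 742 ± 25.9 CPM in Mannan-only, beside 789 ± 19.1 CPM in Sedentary (SD, n = 4 each), with log2 fold changes of 0.06 in AREx and -0.09 in Mannan-only. Hsp90aa1 measured 484, 213, 212 and 331 CPM in AREx, 226, 225, 225 and 239 CPM in Mannan-only, and 265, 254, 264 and 285 CPM in Sedentary. Hsp90aa1, the more inducible form, was high in AREx replicates 1 and 4 alone, while AREx replicates 2 and 3 lay below all 8 other libraries. Its log2 fold change was 0.21 in AREx (adjusted p = 0.45) and -0.22 in Mannan-only (adjusted p = 0.428). Without AREx replicates 1 and 4 the AREx difference turned to -0.33 (adjusted p = 0.00276), and the Mannan-only difference of -0.22 passed (adjusted p = 0.00643).

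Of the 6 small heat shock genes tested, 2 fell and 1 rose in AREx, and 4 fell and none rose in Mannan-only. Over all genes, 23.7% fell and 27% rose in AREx, and 25.2% fell and 26.3% rose in Mannan-only. Hspb1 (HSP25 of the mouse, which binds unfolded protein and actin filaments) lies on chromosome 5 of GRCm39 at 135916773 to 135918417, plus strand. Hspb1 measured 24.96, 20.7, 13.6 and 39.1 CPM in AREx, 15.9, 10.8, 15.01 and 17.9 CPM in Mannan-only, and 74.04, 79.02, 77.98 and 75.8 CPM in Sedentary. The Sedentary libraries lay close together and above every mannan-treated library, of which AREx replicate 4 was the highest. Hspb1 fell in Mannan-only (log2 fold change -2.36, SE 0.27, adjusted p = 1.49e-05) and in AREx (log2 fold change -1.64, SE 0.26, adjusted p = 0.000211). Its promoter (chr5:135887769-135887918, plus strand, GRCm38.p6, RefSeq) is shown because it carries 2 copies of the short heat shock element, in capitals, at bases -117 to -110 and -97 to -90.
Hspb1: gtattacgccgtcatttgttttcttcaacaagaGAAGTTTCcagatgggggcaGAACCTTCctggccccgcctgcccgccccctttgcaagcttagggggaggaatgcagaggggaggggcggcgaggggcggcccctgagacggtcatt

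Hspb8, a partner of the cochaperone Bag3, fell by 0.76 in AREx and by 1.01 in Mannan-only (log2, adjusted p = 0.00175 and 0.000216). It measured 44.4, 51.05, 61.8 and 74.8 CPM in AREx, 45.6, 46.9, 51.99 and 50.2 CPM in Mannan-only, and 79.1, 96.6, 105 and 112 CPM in Sedentary. Hspb8 was listed with Hspb2, Hspb3, Hspb6 and Hspb7 as a muscle small heat shock gene, and Hspb3 had too few reads to be tested. Hspb6 and Hspb2, small heat shock genes best known from muscle, fell in Mannan-only and did not pass in AREx, and their difference between AREx and Mannan-only did not pass either (adjusted p = 0.233 for both). Hspb6 measured 9.17, 16.1, 5.92 and 13.9 CPM in AREx, 5.99, 6.705, 6.49 and 5.46 CPM in Mannan-only, and 11.2, 14.6, 12.5 and 14.2 CPM in Sedentary. The Mannan-only libraries lay below all Sedentary libraries, while AREx replicates 2 and 4 lay within or above the Sedentary range and replicates 1 and 3 below it. Hspb6 fell in Mannan-only (log2 fold change -1.09, SE 0.26, adjusted p = 0.0035), and in AREx the difference was -0.21 (adjusted p = 0.499). Hspb2 measured 1.997, 1.11, 1.01 and 3.199 CPM in AREx, 0.607, 0.654, 0.704 and 1.01 CPM in Mannan-only, and 2.66, 4.49, 2.45 and 3.35 CPM in Sedentary. AREx replicate 4 reached the Sedentary range. Hspb2 fell in Mannan-only (log2 fold change -2.11, SE 0.40, adjusted p = 0.000723), and in AREx the difference was -0.81 (adjusted p = 0.0797). That AREx difference passed under 6 alternatives: without AREx replicates 1 and 4 (-1.59, adjusted p = 0.00208), without AREx replicates 2 and 4 (-1.11, adjusted p = 0.0374), without AREx replicate 4 (-1.25, adjusted p = 0.00886), with the gene length trend removed (-1.16, adjusted p = 0.00714), in limma-voom (-0.89, adjusted p = 0.0442) and with a replicate block (-0.90, adjusted p = 0.0497). Hspb2 shares 1030 bases with Cryab on the other strand, which had 6750 reads over the 12 libraries against 330 of Hspb2, so its count is uncertain.

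Hspb7, a heart and muscle member, passed in neither group. It averaged 5.69 ± 2.39 CPM in AREx and 3.22 ± 0.535 CPM in Mannan-only, beside 4.36 ± 3.14 CPM in Sedentary (SD, n = 4 each). AREx replicates 2 and 4, at 8.05 and 7.43 CPM, and Sedentary replicate 2, at 9.05 CPM, stood above the other 9 libraries. Without that Sedentary library, Hspb7 passed in AREx (1.02, adjusted p = 0.0212). Hspb11, a subunit of intraflagellar transport, rose in AREx (log2 fold change 0.57, SE 0.19, adjusted p = 0.0232) and not in Mannan-only (0.14, adjusted p = 0.569). That call was lost under 7 of the alternatives, among them without AREx replicate 4 (0.40, adjusted p = 0.0739), without AREx replicates 1 and 4 (0.31, adjusted p = 0.14) and without AREx replicates 2 and 4 (0.46, adjusted p = 0.0785).

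AREx replicates 2 and 4 held the skeletal muscle transcripts described above, and 14 of 16 skeletal muscle markers were higher in AREx than in Sedentary and none in Mannan-only, where Myh1 and Myh4 had no read in 1 library. Without these 2 libraries, Hspb6 fell in AREx against Sedentary (-0.80, adjusted p = 0.0105), and 4 of 6 small heat shock genes fell and none rose. Hspb2, 1 of the 4, also fell without AREx replicates 1 and 4, as given above. Without AREx replicates 2 and 4, 6864 of all genes were called in either direction. The share that was lower was not counted, so the 4 of 6 cannot be set against it. With a muscle score (from the 16 markers) as a covariate, Hspb6 was at -0.80 (adjusted p = 0.0934) and Hspb1 at -1.93 (adjusted p = 0.00281). Smooth muscle and pericyte markers also moved, with 4 of 6 lower in Mannan-only, and 4 lower and 1 higher in AREx (sums of 505 to 1031 CPM in AREx and 509 to 785 CPM in Mannan-only, against 1133 to 1800 CPM in Sedentary, and none at 0). Their part in the decrease was not tested.

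**Figure D4:**
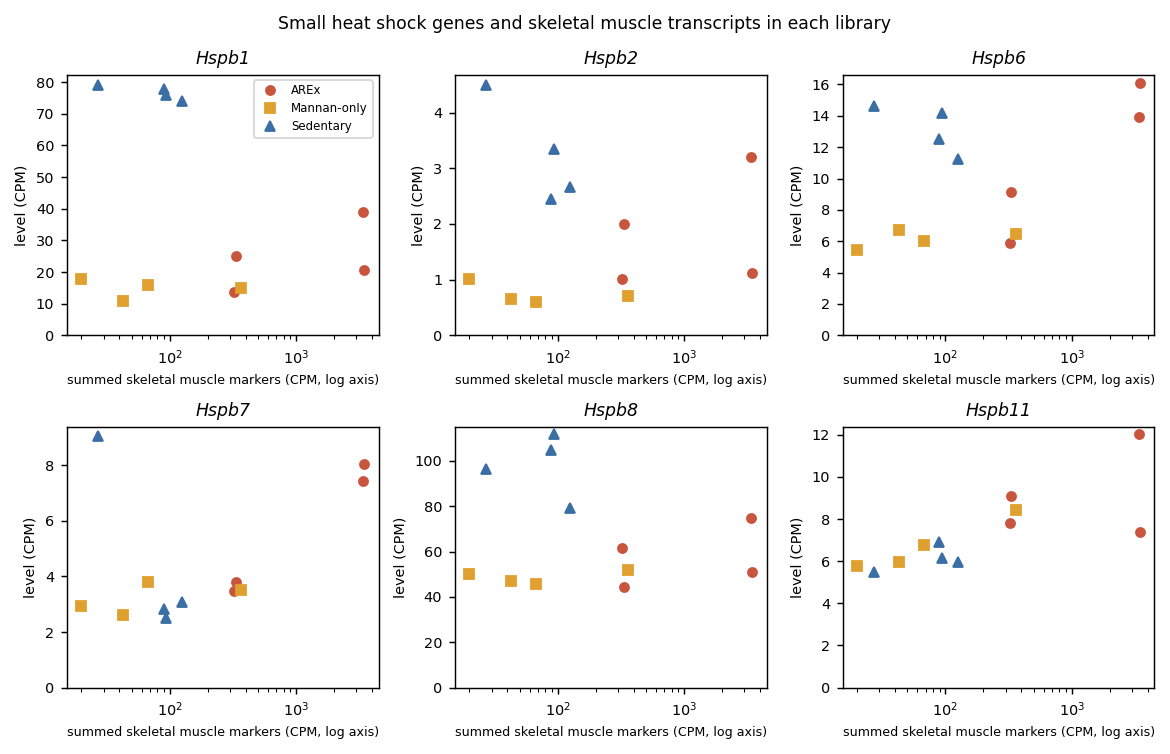
Level (CPM) of 6 small heat shock genes in each library against the summed level of 16 skeletal muscle markers (CPM, log axis). AREx replicates 2 and 4 lie at the right, at 3491 and 3402 CPM of muscle markers. Hspb6 and Hspb7 are highest among AREx libraries in these 2, while Hspb1 is at most 39.1 CPM in an AREx library.

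No mitochondrial chaperone rose. Of 10 members, 5 fell in AREx and 6 in Mannan-only. Over all genes, 27% rose and 23.7% fell in AREx, and 26.3% rose and 25.2% fell in Mannan-only. Hspa9 (mortalin, the HSP70 of the matrix and motor of protein import) and Hspd1 (HSP60, which forms the folding chamber) both fell. Hspa9 measured 175, 179.5, 178 and 199 CPM in AREx, 178, 167, 171 and 200.4 CPM in Mannan-only, and 301, 267, 308 and 371 CPM in Sedentary. Every mannan-treated library lay below every Sedentary library, of which replicate 4 was the highest. Hspa9 fell in Mannan-only (log2 fold change -0.80, SE 0.12, adjusted p = 0.000152) and in AREx (log2 fold change -0.77, SE 0.12, adjusted p = 0.000213). Hspd1 measured 119, 111, 108 and 129 CPM in AREx, 115, 107, 102 and 116 CPM in Mannan-only, and 151, 133, 164 and 197 CPM in Sedentary. Here too the groups did not overlap, with log2 fold changes of -0.47 in AREx and -0.55 in Mannan-only (SE 0.13 each, adjusted p = 0.00823 and 0.00296). With the muscle score as a covariate, Hspd1 in AREx just missed the threshold (-0.52, adjusted p = 0.0508).

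Hspe1 (HSP10), the lid of the HSP60 chamber, did not pass in either group. Hspe1 measured 101, 41.8, 38.2 and 70.5 CPM in AREx, 42.3, 33.1, 36.4 and 35.8 CPM in Mannan-only, and 40.6, 36.6, 42.7 and 45.1 CPM in Sedentary. AREx replicates 1 and 4 stood apart above all other libraries, and the rest lay close together. The difference was 0.60 in AREx (adjusted p = 0.0644) and -0.16 in Mannan-only (adjusted p = 0.624). The ratio of Hspe1 to Hspd1 was 0.845, 0.378, 0.354 and 0.548 in the AREx libraries, 0.309 to 0.366 in Mannan-only and 0.228 to 0.276 in Sedentary, so it was higher in every mannan-treated library than in any Sedentary one. Without AREx replicates 1 and 4 the AREx difference of Hspe1 was -0.04 (adjusted p = 0.762). It passed without AREx replicate 2 (0.76, adjusted p = 0.0225) or replicate 3 (0.79, adjusted p = 0.0133), and at a smaller size with the gene length trend removed (0.22, adjusted p = 0.0326). The 2 genes lie head to head, on opposite strands, on chromosome 1 of GRCm39, Hspd1 at 55116994 to 55127402 (minus strand) and Hspe1 at 55127291 to 55130466 (plus strand), and share 112 bases, so reads there are uncertain.

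A stretch upstream of both Hspe1 and one RefSeq start of Hspd1 is shown because it holds a long heat shock element. The form of 3 units, GAA, TTC and GAA or TTC, GAA and TTC with 2 bases of any kind between neighbours, stood in 3 of the 58 members, Hspd1, Hspe1 and Dnajb6, and in 0.514% of all promoters, and Hspd1 and Hspe1 read the same shared stretch from either side. In the 30 bases printed (chr1:55088053-55088082, plus strand, GRCm38.p6, RefSeq, bases -95 to -66 from the Hspe1 start) capitals mark 2 overlapping copies. Neither Dnajb6, which suppresses protein aggregation (-0.12 in AREx and -0.02 in Mannan-only), nor Hspe1 passed in a comparison with Sedentary, and Hspd1 fell in both.
Hspe1: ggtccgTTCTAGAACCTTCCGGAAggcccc

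The largest mitochondrial change was that of Dnajc15, a J protein of the import motor at the inner membrane. Dnajc15 measured 60.2, 16.6, 19.8 and 41.7 CPM in AREx, 19.4, 16.9, 18.1 and 20.7 CPM in Mannan-only, and 84.7, 62.7, 92.01 and 117 CPM in Sedentary. The groups did not overlap with Sedentary, although AREx replicate 1, at 60.2 CPM, came close to the lowest Sedentary library, at 62.7 CPM. Dnajc15 fell in Mannan-only (log2 fold change -2.25, SE 0.36, adjusted p = 0.00021) and in AREx (log2 fold change -1.37, SE 0.35, adjusted p = 0.00545). Without AREx replicates 1 and 4 the AREx difference was -2.29, and with the muscle score as a covariate the AREx call was lost (-1.25, adjusted p = 0.0724). Dnaja3, the J partner of Hspa9, fell by 0.58 in AREx and by 0.64 in Mannan-only (log2, adjusted p = 0.00432 and 0.00234). It overlaps Coro7 and Vasn, which leaves its count uncertain. Dnajc28 fell by 0.74 in AREx and by 0.70 in Mannan-only, and its AREx call was lost without AREx replicates 1 and 4 (-0.46, adjusted p = 0.117). Dnajc4 fell in Mannan-only (log2 fold change -0.94, SE 0.24, adjusted p = 0.00505) and did not pass in AREx (-0.36, adjusted p = 0.219), where it passed without AREx replicates 1 and 4 (-0.95, adjusted p = 0.00015).

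Dnajc19, the inner membrane relative of Dnajc15, was split in AREx. Dnajc19 measured 76.1, 22.2, 25.7 and 45.01 CPM in AREx, 21.8, 21.01, 22.4 and 26.4 CPM in Mannan-only, and 39.01, 37.8, 33.8 and 42.8 CPM in Sedentary. AREx replicate 1 was the highest of the 12 libraries, replicate 4 lay just above Sedentary, and replicates 2 and 3 lay within the Mannan-only range. Its log2 fold change was 0.14 in AREx (adjusted p = 0.735) and -0.74 in Mannan-only (adjusted p = 0.0625). Without AREx replicates 1 and 4 the AREx difference was -0.68 (adjusted p = 0.000833), on the other side of 0, and the Mannan-only difference of -0.74 passed (adjusted p = 7.54e-05). Dnajc19 shares 14303 bases with Fxr1 on the other strand, so its count is uncertain. Dnajc11 and Dnajc30 did not pass in either group. Of the mitochondrial chaperones and proteases outside the family, 4 of 10 fell in AREx and 6 of 10 in Mannan-only, and none rose. For all genes the shares were 23.7% lower and 27% higher in AREx, and 25.2% lower and 26.3% higher in Mannan-only. Clpx, the unfoldase of a matrix protease, had -1.20 in AREx and -1.19 in Mannan-only, and Trap1, the mitochondrial HSP90, had -0.97 in AREx and -1.01 in Mannan-only. Atf5, a transcription factor of the mitochondrial stress response, had -1.28 in AREx and -1.51 in Mannan-only, and the protease Lonp1 had -0.87 in AREx and -0.79 in Mannan-only. The adipocyte markers fell in the same libraries, and their part in the mitochondrial decrease was not tested.

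Of the 10 cytosolic class A and B DnaJ genes tested, 1 rose and 3 fell in AREx and 1 rose and 4 fell in Mannan-only. The shares of all genes were 27% higher and 23.7% lower in AREx, and 26.3% higher and 25.2% lower in Mannan-only. Dnajb1, the classic stress-inducible HSP40, averaged 39.7 ± 3.92 CPM in AREx and 37.5 ± 1.93 CPM in Mannan-only, beside 37.1 ± 2.03 CPM in Sedentary (SD, n = 4 each), with log2 fold changes of 0.10 in AREx and 0.02 in Mannan-only that did not pass. Dnaja1, a general partner of Hspa8, did not pass either (-0.12 in AREx and -0.19 in Mannan-only), and Dnaja2 fell in Mannan-only (log2 fold change -0.37, SE 0.12, adjusted p = 0.0185) and did not pass in AREx (-0.23, adjusted p = 0.121), where it passed without AREx replicates 1 and 4 (-0.42, adjusted p = 0.00111). The Dnaja2 difference between AREx and Mannan-only, 0.14, did not pass. Dnaja1 passed without AREx replicates 1 and 4, both in AREx (-0.30, adjusted p = 0.00365) and in Mannan-only (-0.19, adjusted p = 0.0122).

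Dnajb4 measured 19.8, 30.1, 34.4 and 39.8 CPM in AREx, 30.3, 33.1, 40.03 and 34.8 CPM in Mannan-only, and 65.3, 87.3, 73.01 and 56.4 CPM in Sedentary. For Dnajb4, all Sedentary libraries lay above all others. It fell in Mannan-only (log2 fold change -1.03, SE 0.20, adjusted p = 0.000893) and in AREx (log2 fold change -1.18, SE 0.20, adjusted p = 0.000345). Dnajb2, which links J proteins to ubiquitin and is best known from neurons, fell by 0.73 in AREx and by 0.90 in Mannan-only (log2, adjusted p = 0.00123 and 0.000277). Dnaja4 fell by 0.77 in AREx and by 0.82 in Mannan-only (adjusted p = 0.00237 and 0.00156), with 1581 bases shared with Wdr61 on the other strand. Dnajb5 passed in neither, but fell in AREx without AREx replicates 2 and 4 (-0.56, adjusted p = 0.0369).

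Both class B genes that rose were low or overlapped others. Dnajb13, known from the sperm tail, rose in Mannan-only (log2 fold change 1.21, SE 0.37, adjusted p = 0.0145), with 2.64 ± 1.495 CPM in AREx and 3.79 ± 0.270 CPM in Mannan-only, beside 1.64 ± 0.327 CPM in Sedentary (SD, n = 4 each). In AREx its difference was 0.70 (adjusted p = 0.132), and it passed without AREx replicate 1 (0.95, adjusted p = 0.0212) and without AREx replicates 1 and 4 (1.26, adjusted p = 0.000738). Dnajb13 shares 305 bases with Ucp2 on the other strand, which had 78628 reads against its 437. Dnajb3 rose in AREx (log2 fold change 1.23, SE 0.36, adjusted p = 0.0128) and missed the threshold in Mannan-only (0.93, adjusted p = 0.0508). It had 152 reads over all libraries and lies within the Ugt1a genes, of which Ugt1a7c had 7794 reads. Both counts are therefore uncertain. The AREx call of Dnajb3 was lost without AREx replicates 1 and 4 (0.79, adjusted p = 0.108) and with the muscle score, where the difference was still 1.005 (adjusted p = 0.152). Its Mannan-only difference passed under 6 alternatives at 0.93 to 1.17, among them without AREx replicates 1 and 4 (0.94, adjusted p = 0.0277) and without AREx replicates 2 and 4 (0.94, adjusted p = 0.0219).

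The other cytosolic and nuclear class C genes were mixed. Of 13 tested, 1 rose and 1 fell in AREx, and 2 rose and 4 fell in Mannan-only. Among all genes, 27% rose and 23.7% fell in AREx, and 26.3% rose and 25.2% fell in Mannan-only. Dnajc13, which acts at endosomes, rose in Mannan-only (log2 fold change 0.78, SE 0.21, adjusted p = 0.00714). Dnajc13 measured 59.1, 121, 122 and 74.6 CPM in AREx, 111, 129.8, 128 and 143 CPM in Mannan-only, and 75.8, 78.01, 78.6 and 65.6 CPM in Sedentary. The Mannan-only libraries were all above Sedentary, while AREx replicates 2 and 3 lay with Mannan-only and replicate 4 lay within the Sedentary range and replicate 1 below it. The AREx difference was 0.34 (adjusted p = 0.193), and it was 0.70 (adjusted p = 0.000206) without replicates 1 and 4 and 0.43 (adjusted p = 0.00367) with the length trend removed. Dnajc5, the cysteine string protein of secretory vesicles, rose in Mannan-only (log2 fold change 0.37, SE 0.12, adjusted p = 0.0198). Dnajc2, a ribosome-bound J protein, rose in AREx (log2 fold change 0.55, SE 0.15, adjusted p = 0.00836), a call lost with the muscle score at about the same size (0.58, adjusted p = 0.0619).

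Those that fell in Mannan-only were Dnajc21, a factor of ribosome assembly (log2 fold change -0.69, SE 0.18, adjusted p = 0.0072), Dnajc24, needed to make diphthamide (-0.39, adjusted p = 0.0224), the histone chaperone Dnajc9 (-0.35, adjusted p = 0.0264) and Dnajc7 (-0.24, adjusted p = 0.0493), which overlaps Cnp and Nkiras2. With the length trend removed, the calls of Dnajc24, Dnajc9 and Dnajc5 were lost (adjusted p = 0.346 for Dnajc24, 0.0881 for Dnajc9 and 0.143 for Dnajc5), and that of Dnajc7 was lost without AREx replicates 2 and 4 (adjusted p = 0.0512). Dnajc12, a cochaperone of aromatic amino acid hydroxylases, fell in AREx (log2 fold change -0.88, SE 0.27, adjusted p = 0.0152), with -0.62 in Mannan-only (adjusted p = 0.0669; 0.0161 without AREx replicates 1 and 4 and 0.0332 without AREx replicates 2 and 4). Dnajc21 also fell in AREx without AREx replicates 1 and 4 (-0.84, adjusted p = 7.79e-05) or 2 and 4 (-0.58, adjusted p = 0.013). Dnajc6, Dnajc8, Dnajc17, Dnajc18 and Dnajc27 did not pass in either comparison. Of these, Dnajc17, a splicing-associated gene, turned to -0.58 in AREx without replicates 1 and 4 (adjusted p = 0.0101), against 0.20 with all 4, and its Mannan-only difference of -0.57 then passed (adjusted p = 0.00273).

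Between AREx and Mannan-only, no member passed edgeR's test in either direction, against 0.007% of all genes tested, and the same held in DESeq2 and limma-voom. At an unadjusted p under 0.05 there were 13 members and 2842 of all genes, and the smallest adjusted p was 0.233. The groups did not overlap for 5 members, against 6.75% of all genes, 3.05% higher and 3.71% lower. Of the members, Hspb2 (1.30), Dnajc24 (0.33) and Hsp90ab1 (0.15) were higher and Hspa13 (-0.42) and Dnajc16 (-0.41) lower in AREx, as log2 fold changes that did not pass. The 6 with the smallest p were Hspb6 (0.88, SE 0.26), Hspb2 (SE 0.40), Hspe1 (0.77, SE 0.26), Dnajc19 (0.88, SE 0.31), Hspb1 (0.72, SE 0.26) and Dnajc17 (0.77, SE 0.30). In the authors' deposited table, 3 members passed at the authors' adjusted p in this comparison, Hspe1 (0.76, adjusted p = 0.0486), Hspb6 (0.87, adjusted p = 0.0488) and Dnajc19 (0.87, adjusted p = 0.0493). How many of all genes passed there was not counted.

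These differences moved with the AREx libraries that stood apart. Without AREx replicates 1 and 4, the AREx minus Mannan-only difference of Hspe1 was 0.12, that of Dnajc19 0.06 and that of Dnajc17 -0.01, while Hspb6 stayed at 0.84. Without AREx replicates 2 and 4, Hspb6 was at 0.29, Hspe1 at 0.91 and Dnajc19 at 1.15. Gene length went with the size of the difference. Among the 14 members in the shortest quintile of all genes tested, all 14 were higher in AREx than in Mannan-only, with a median of 0.48, and among the 10 members in the longest quintile 3 were higher, with a median of -0.15. The 41 between had a median of 0.03. The trend is not particular to the family. Over all genes, AREx replicates 1 and 4 had medians of 0.71 and 0.38 in the shortest quintile, and -0.50 and -0.31 in the longest. With the length trend removed in each library, Hspe1 was at 0.07, Dnajc17 at 0.15, Hspb1 at 0.20 and Hspb6 at 0.54, while Dnajc19 was at 1.001 and Dnajc15 at 1.22. Over the 65 members the median coefficient of variation was 18.3% in AREx, 7.36% in Mannan-only and 9.20% in Sedentary. AREx replicate 4 was the highest AREx library for 33 members and AREx replicate 1 for 16. The lowest was AREx replicate 1 for 26 members and AREx replicate 2 for 25.

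**Figure D5:**
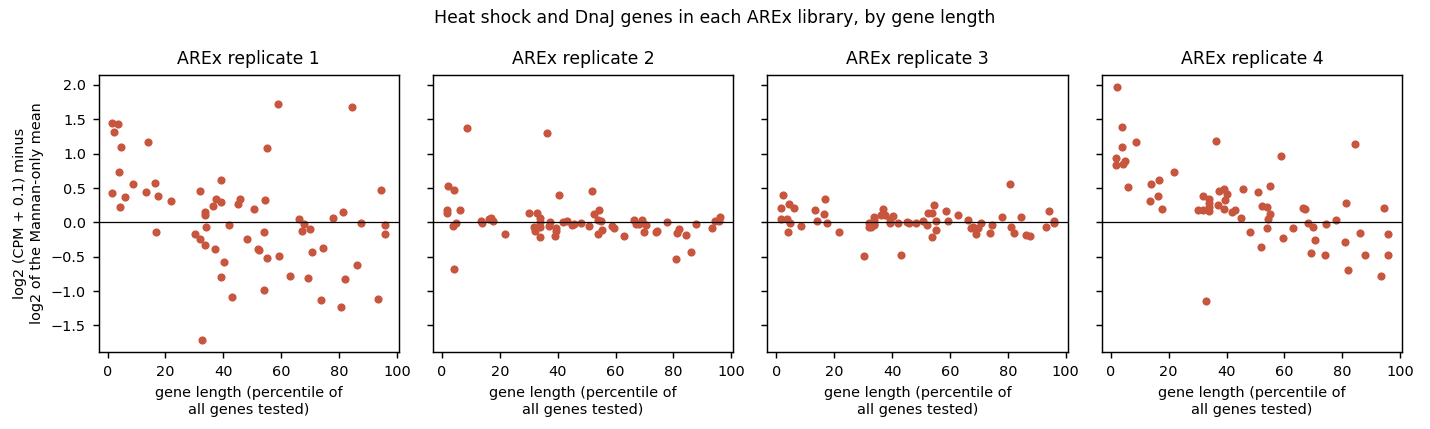
Difference of each of the 65 members in each AREx library from the Mannan-only mean, in log2(CPM + 0.1), against the percentile of its length among all genes tested. In replicates 1 and 4 the points fall with length, and in replicates 2 and 3 most lie near 0.

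The order of levels within the family, per gene length (the authors' RPKM), had the same 4 genes at the top in each group. Hspa8 led with 526 ± 42.5 RPKM in AREx, 497 ± 21.1 in Mannan-only and 363 ± 10.2 in Sedentary (SD, n = 4 each). Hsp90ab1 followed with 263 ± 29.9 RPKM in AREx, 244 ± 12.7 in Mannan-only and 259 ± 3.40 in Sedentary. Hsp90b1 came next, with 238 ± 32.1 RPKM in AREx, 209 ± 9.95 in Mannan-only and 133 ± 8.76 in Sedentary. Hspa5 had 186 ± 48.4 RPKM in AREx, 198 ± 3.85 in Mannan-only and 100.4 ± 7.87 in Sedentary. In AREx, Hsp90ab1 and Hsp90b1 lay within 1 SD of each other, as did Hsp90aa1 and Hspe1. Below them the order differed: Hspa9 and Hspb1 were 5th and 6th in Sedentary, at 88.7 ± 10.46 and 64.6 ± 2.58 RPKM, and Hspb1 was 17th in AREx and 24th in Mannan-only. Dnajc6, the auxilin of clathrin uncoating, was the lowest of the 65 in each group.

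Of 24 cochaperones of HSP70 and HSP90 outside the family, 5 rose and 6 fell in AREx (20.8% and 25%), near the 27% higher and 23.7% lower of all genes. In Mannan-only 2 rose and 8 fell (8.33% and 33.3%), against 26.3% higher and 25.2% lower of all genes. Serpinh1, the collagen chaperone HSP47 of the ER, rose most, with 1.39 in AREx and 1.33 in Mannan-only (SE 0.15 each). Cryab, the small heat shock protein of lens and muscle, fell by 2.03 in AREx and by 2.65 in Mannan-only. The HSP70 cochaperone St13 fell by 0.76 in AREx and by 0.96 in Mannan-only, and Bag4 fell by 1.27 in AREx and by 1.20 in Mannan-only. Among 7 heat shock factors and regulators, 2 rose and 1 fell in AREx, against 27% higher and 23.7% lower of all genes. In Mannan-only 1 of the 7 rose and 2 fell, against 26.3% and 25.2% of all genes. Hsf4 rose, with 7.16 CPM in AREx and 5.42 CPM in Mannan-only, against 2.92 CPM in Sedentary. Hsf1, the main heat shock factor, named after its values were seen, averaged 22.8 CPM in AREx and 25.3 CPM in Mannan-only, against 25.6 CPM in Sedentary, and did not pass (adjusted p = 0.152 and 0.915). Of 13 subunits of the chaperonin TRiC and its partner prefoldin, 2 rose in AREx, Cct3 (0.44) and Pfdn4 (0.56), and none passed in Mannan-only.

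The authors' deposited table called 8 members higher and 15 lower in AREx against Sedentary, and 5 higher and 19 lower in Mannan-only against Sedentary, at the same threshold on the authors' adjusted p. The share of all genes that passed the authors' test was not counted, so these counts cannot be set against it.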

How the data were processed

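Poly(A) RNA of synovial membrane and fat pad was sequenced in 12 libraries, 4 in each of 3 groups. The authors deposited whole-number read counts per gene and RPKM values, and gene positions are on GRCm39, per the submitters' processing notes. The deposited table also held the authors' log2 fold changes and adjusted p-values. The aligner, counter and strand setting were not given in the sources used. Columns were matched to groups by the short names in their headers.

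Counts were tested in R 4.3.3 with edgeR 4.0.16 (TMM scaling, filterByExpr at a minimum count of 10, robust quasi-likelihood fit of all 12 libraries with a mean per group) and Benjamini-Hochberg adjustment over 14278 genes, at an adjusted p of 0.05. SE is the absolute log2 fold change over the root of its F statistic. Levels are CPM on TMM-scaled library sizes, and RPKM was used to order genes and plot lengths. The script was tested on simulated data. Alternatives were DESeq2 1.42.0, limma-voom (limma 3.58.1), DESeq2 size factors, filters, a replicate block, only the groups compared, a skeletal muscle score, removal of a gene length trend, and leaving out libraries. Replicate numbers did not pair the libraries.

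Genes named were the fixed classic and small heat shock members, then up to 6 members in each direction with the largest change in each comparison (the 6 of smallest p where few passed), and up to 4 genes of smallest p in each list. The other members were named after their values were seen. The members and lists were chosen with earlier results of these data known.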

Additional observations from a re-analysis of the deposited data

Results flagged for a closer look

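In 84 groups of 4 libraries (28 named members in 3 groups), 3 had a library far from the others, where chance flags about 1 in 20 groups. Hspb7 was at 9.05 CPM in Sedentary replicate 2, with the next library of that group at 3.06 CPM. Hspa12a was at 18.5 CPM in Mannan-only replicate 2, below the nearest at 25.4 CPM. Hsp90aa1 was at 239 CPM in Mannan-only replicate 4, above the nearest at 226 CPM.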

How the results depend on the processing

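Of the alternatives for single members, 1818 values stayed the same, 20 lost the call, 39 gained one, 51 moved and 3 reversed. The same means a call kept with its direction, or no call in both and a shift below the SD within groups. Values without a call could change direction: Hspa1b in AREx against Mannan-only kept its sign in 18 of 23 alternatives. The reversals were in AREx against Sedentary without AREx replicates 1 and 4: Hsp90aa1 -0.33, Dnajc19 -0.68 and Dnajc17 -0.58. Members higher in AREx against Sedentary numbered 5 with the muscle score, and members lower numbered 26 without AREx replicates 1 and 4. All genes called there numbered 5249 and 8896 in these settings, against 7253 in the main fit. The score ran from 3.68 to 7.22 in AREx, -0.42 to 3.99 in Mannan-only and 0.22 to 2.62 in Sedentary. It could therefore not be fully separated from the group. All genes called between AREx and Mannan-only numbered 1, against 137 with DESeq2, 6 with the length trend removed, and 0 with the muscle score, with only the 2 groups, without AREx replicates 1 and 4 and without AREx replicates 2 and 4. The cause was not tested. The replicate block gave 0 such genes, 9 higher and 24 lower members in Mannan-only and 8 and 19 in AREx against Sedentary, with correlations of same-numbered libraries from -0.07 to 0.13. Leaving out 1 library gave 7 to 12 members higher and 19 to 27 lower in Mannan-only against Sedentary, 7 to 12 higher and 16 to 19 lower in AREx against Sedentary, and 0 to 27 genes between AREx and Mannan-only (27 without AREx replicate 3). DESeq2 and limma-voom kept 34 of 34 calls in Mannan-only and 26 of 26 in AREx. The muscle score kept 33 of 34 in Mannan-only and 19 of 26 in AREx. Removal of the length trend kept 29 of 34 in Mannan-only and 25 of 26 in AREx. Without Mannan-only replicate 4, 26 of the 34 calls in Mannan-only were kept. Low counts limit Hspb2, Dnajb3 and Dnajb13.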
